A study of Homo sapiens with 42 samples.

Results

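The region from RNF182 and CD83 to JARID2 and DTNBP1 on the short arm of human chromosome 6 was described through its chromatin loops, which are pairs of 10 kb anchors that touch more often than their surroundings in a Hi-C contact map. The members were the loops of the deposited loop table on chromosome 6 with either anchor starting between 13800000 and 15800000 of GRCh38 (hg38), which were 42 of 33914 loops. The region was selected on a measured value, the rise of 1 loop of 1720 kb at 6 h, so every value and count of 6 h against 0 h below is a description from which nothing is read. Of the 42 loops, 31 had both anchors inside the window, and the lengths ran from 70 to 2060 kb with a median of 375 kb.

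The cells were K562, a human leukaemia line with a WT genotype in the labels, treated with 25 nM PMA (phorbol myristate acetate, an activator of protein kinase C) for 0, 6 or 72 h, with the medium changed after 24 h and 48 h. PMA moves K562 cells toward a megakaryocyte-like state, which is the process the series follows. There were 4 replicates at each time, and in situ Hi-C of each was deposited as 2 or 3 technical replicates, which were summed to 12 libraries holding 736929 to 1472197 contacts in loops. The labels number the replicates as biological ones (biorep) but do not say that they came from separate cultures. The p-values therefore measure the spread between these libraries. Replicates 3 and 4 agreed within sampling noise at 0 h and at 72 h by chi-square (p = 0.0985 over 33547 loops and p = 0.577 over 33874 loops). Each such pair counts as 1 sample in the means, which leaves n = 3 at 0 h, n = 4 at 6 h and n = 3 at 72 h. The tests kept all 12 libraries apart.

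A loop forms when cohesin extrudes a strand of chromatin until it is stopped, most often at paired sites of the protein CTCF, and loops that meet at gene starts can bring enhancers to promoters. CD83 encodes a surface glycoprotein of the immunoglobulin superfamily known from activated dendritic cells. JARID2 encodes an accessory subunit of Polycomb repressive complex 2, the enzyme that methylates lysine 27 of histone H3. RNF182 encodes an E3 ubiquitin ligase, and DTNBP1 encodes dysbindin, a subunit of the BLOC-1 complex of lysosome-related organelles. Hi-C counts contacts between DNA segments and does not measure the expression of these genes.

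The 4 named genes lay as follows in the RefSeq table of GRCh38.p14. RNF182 occupied chr6:13924446-13980310 on the plus strand, CD83 chr6:14117256-14136918 on the plus strand, JARID2 chr6:15246069-15522042 on the plus strand and DTNBP1 chr6:15522807-15663058 on the minus strand. MCUR1, a regulator of mitochondrial calcium uptake at chr6:13786557-13814557 on the minus strand, was the only other one of the 5 protein-coding genes with any part in the window. JARID2 was the only one of these 5 with its start inside an anchor, and CD83 had its far end inside one. The end of RNF182 nearest to an anchor was its start, 4.446 kb away, and for DTNBP1 it was the 3′ end, 2.807 kb away. Exon positions were not used here.

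The sequence before the 2 annotated JARID2 starts is shown because both lie in the anchor whose loops into the gene fell, and the sequence before the second CD83 start because CD83 lies under anchors of loops that rose. Each is the 250 bases before a RefSeq start on the plus strand of GRCh38.p14, at chr6:15245819-15246068, chr6:15248605-15248854 and chr6:14117522-14117771. Capitals mark AGGNGGC, part of the CTCF motif, and GGAAGT, the core letters of ETS factor sites, on either strand. TGANTCA, the site of AP-1, a class of factor that PMA induces, and AGATAA, a form of the site of the GATA factors of blood cells, were searched too.
JARID2 first start: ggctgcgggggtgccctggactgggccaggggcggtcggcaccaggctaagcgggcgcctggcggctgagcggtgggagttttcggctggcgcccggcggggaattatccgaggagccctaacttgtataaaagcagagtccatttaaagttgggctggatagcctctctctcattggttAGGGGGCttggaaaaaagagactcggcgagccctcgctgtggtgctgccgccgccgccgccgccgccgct
JARID2 second start: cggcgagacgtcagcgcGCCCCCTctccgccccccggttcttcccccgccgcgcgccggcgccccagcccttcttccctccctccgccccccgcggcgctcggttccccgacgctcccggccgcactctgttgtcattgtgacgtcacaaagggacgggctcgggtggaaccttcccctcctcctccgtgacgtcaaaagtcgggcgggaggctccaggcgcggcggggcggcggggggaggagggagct
CD83 second start: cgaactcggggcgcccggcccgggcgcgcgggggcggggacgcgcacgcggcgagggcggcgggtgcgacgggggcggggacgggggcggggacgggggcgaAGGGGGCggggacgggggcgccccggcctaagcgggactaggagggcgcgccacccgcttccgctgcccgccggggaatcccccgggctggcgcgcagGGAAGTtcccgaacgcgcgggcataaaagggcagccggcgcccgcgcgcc
Each of these 3 stretches held 1 match to AGGNGGC, and the CD83 stretch also held 1 match to GGAAGT, while neither TGANTCA nor AGATAA was found in them. In the 50 bases after each of these starts, searched too but not printed, there was 1 further match, to GGAAGT after the first JARID2 start. The CD83 stretch itself lies in no anchor. Of the stretches not printed, that of the first CD83 start held 1 match to GGAAGT and none to AGGNGGC. The first RNF182 stretch held 3 matches to AGGNGGC and 1 to AGATAA. Each DTNBP1 stretch held 1 to AGGNGGC and 1 to GGAAGT. Those of MCUR1 and the later RNF182 starts held none, though the 50 bases after the last RNF182 start held 1 match to AGGNGGC. Over all 35116 RefSeq promoters of 300 bases, AGGNGGC was found in 35.9%, GGAAGT in 22.8%, AGATAA in 10.3% and TGANTCA in 7.71%, so the matches describe these letters and mark no binding site.

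At 72 h against 0 h the loops of the region split by place and length. The loops that rose mostly joined CD83 or the stretch without protein-coding genes between CD83 and JARID2 to points farther along. A few reached DTNBP1 from afar, with the limits given at the end of this paragraph. Those that fell were mostly short and lay beside RNF182, inside JARID2 and at the 3′ end of DTNBP1. In edgeR's quasi-likelihood test with Benjamini-Hochberg adjustment over all 24132 tested loops, 21 of the 42 passed at 72 h, or 50%, with 11 higher (loop13324, whose rise at 6 h chose the region, among them) and 10 lower, and over all tested loops 33.6% passed, with 16.7% higher and 16.9% lower. Scaled to total counts in place of TMM, 13 of the region's loops were higher and 8 lower, and over all tested loops 4667 were higher and 3388 lower, beside 4024 and 4081 with TMM. The log2 fold changes of the 11 ran from 0.45 to 1.64 (median 0.79) over lengths of 250 to 1720 kb (median 500 kb), and those of the 10 from -1.12 to -0.31 (median -0.52) over lengths of 90 to 1280 kb (median 180 kb). The median over all 42 was 0.07, beside 0.01 over all tested loops. All 42 passed the filter on low counts, which asks for 4 of the 12 libraries above it. However, 9 of them had fewer than 4 libraries of 0 h above it, so these 9 needed later values to be tested. For 3 of them (loop13324, loop13328 and loop13342) no 0 h library was above it, so these 3 entered only through their later values. Loop13324 and loop13342 are among the 11, and without these 2 there were 9 that rose. Those 9 still include loop13327, with 2 libraries of 0 h above the filter, and loop13329 and loop13350, with 3 each. Without loop13324 and loop13342, the loops that rose and reached DTNBP1 were loop13327 and loop13350. Neither passed with DESeq2 (adjusted p = 0.0981 and 0.053). Loop13346, which used the same DTNBP1 anchor, did not pass (edgeR adjusted p = 0.59).

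Between 6 h and 72 h, 6 of the 42 loops passed, 2 higher and 4 lower, against 20.5% of all tested loops (10.7% higher and 9.81% lower). Of the 2 higher, loop13323 had no 6 h library above the filter and entered the test only through its high 72 h values. At 6 h against 0 h, the contrast that chose the region, 14 were past the same threshold, 9 higher and 5 lower, where 6.41% of all tested loops were, 2.34% higher and 4.07% lower. With libraries scaled to their total counts in place of TMM, 769 of all tested loops were higher and 731 lower at 6 h, beside 565 and 981 with TMM, and in the region 9 and 4.

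**Figure D1:**
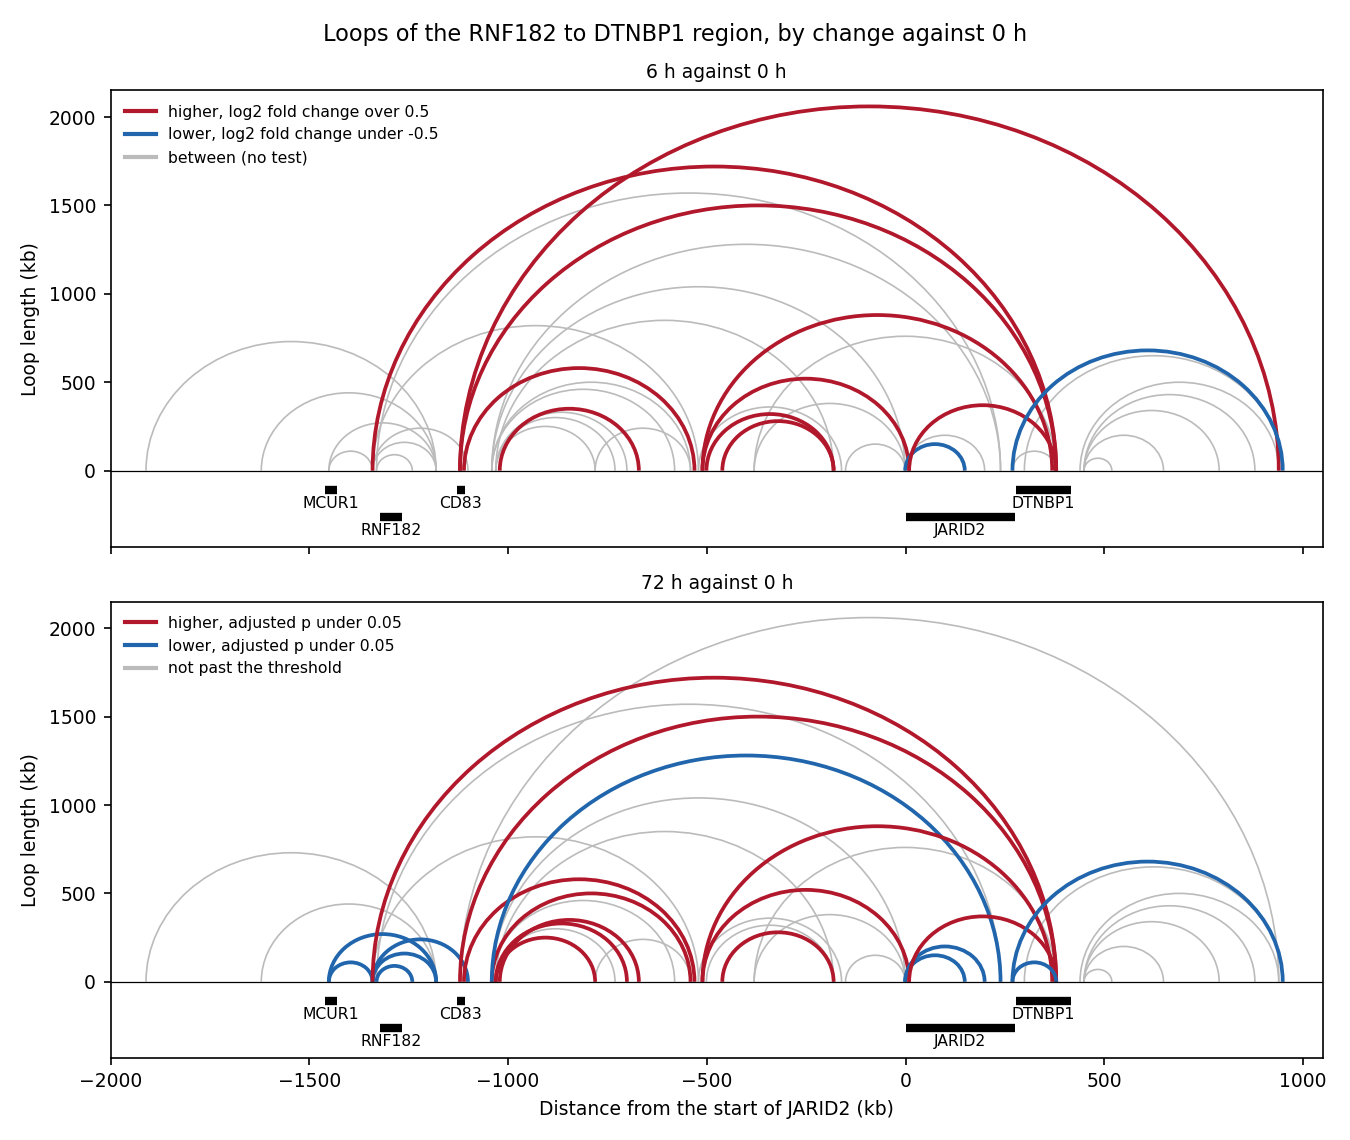
Arcs join the anchors of the 42 loops, with distance from the start of JARID2 in kb on the horizontal axis and loop length in kb on the vertical axis, for 6 h against 0 h (upper) and 72 h against 0 h (lower), with genes as black bars. In the upper panel, a description with no test, red arcs were higher and blue arcs lower by over 0.5 on the log2 scale. In the lower panel red and blue mark an adjusted p under 0.05. The 2 blue arcs that start at JARID2 run into the gene, and the 2 tallest red arcs of the lower panel end in DTNBP1. The tallest of them is loop13324, whose rise at 6 h chose the region.

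The 1720 kb loop by which the region was chosen, loop13324, joined an anchor at chr6:13900001-13910000, upstream of RNF182, to one at chr6:15620001-15630000 inside DTNBP1. Its raw contacts at 0 h were 5, 8, 5 and 2 in replicates 1 to 4, 20 in all with an exact 95% Poisson interval of 12.2 to 30.9 that covers counting error only. At 6 h they were 16, 14, 15 and 16, 61 in all (46.7 to 78.4), and at 72 h 14, 17, 21 and 13, 65 in all (50.2 to 82.8). Each library at 6 h and at 72 h held more raw contacts than any library at 0 h, a description in a loop chosen for its rise.

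Scaled to a library of 1000000 contacts in tested loops, called normalized contacts from here on, loop13324 went from 5.16 ± 2.13 (SD, n = 3) at 0 h to 17.3 ± 3.64 (SD, n = 4) at 6 h and 15.4 ± 2.61 (SD, n = 3) at 72 h. On the log2 scale the change was 1.77 (SE 0.35) at 6 h, the value that chose it, and 1.64 (SE 0.35) at 72 h, which shares the 0 h libraries and is therefore a description too. From 6 h to 72 h it was -0.12 (SE 0.27), a description as well, since it shares the 6 h libraries. Beside the 72 h value of 1.64, the median over all 293 tested loops over 1600 kb was 0.64 in the same fit. With an offset for loop length the 72 h value of loop13324 was 1.14. In that fit the median over the tested loops of 1 Mb or more outside the region was 0.08. The 3 loops outside the region with the most similar course over the 12 libraries were loop16545 on chromosome 7 (Pearson r = 0.95), loop18907 on chromosome 8 (r = 0.95) and loop29095 on chromosome 16 (r = 0.94). They were found among 22747 loops and are given as a description. The region's own loops were left out of that search.

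The DTNBP1 anchor at chr6:15620001-15630000 held 5 loops, and the 3 that passed upward reached at least 370 kb. Loop13327, 1500 kb long, joined it to the body of CD83 at chr6:14120001-14130000. Its normalized contacts were 7.97, 4.75, 11.3 and 14.8 at 0 h, 25.5, 23.4, 19.8 and 26.5 at 6 h, and 17.7, 14.1, 13.5 and 18.7 at 72 h. The 6 h libraries all lay above the others, whereas the 72 h libraries overlapped those of 0 h. Only 2 of its 0 h libraries were above the filter, so it needed its later, higher values to be tested. Against 0 h it changed by 1.36 (SE 0.27) at 6 h and 0.79 (SE 0.29, edgeR adjusted p = 0.0245) at 72 h, and that from 6 h to 72 h was -0.57 (SE 0.24, edgeR adjusted p = 0.0763). The 72 h call was lost when replicate 1 (edgeR adjusted p = 0.103) or 2 (0.149) of 0 h, or 1 (0.0652) or 4 (0.0822) of 72 h, was left out, with DESeq2 (0.0981) and with the length offset (log2 fold change 0.33, adjusted p = 0.414).

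Loop13350, 370 kb long, joined the same DTNBP1 anchor to chr6:15250001-15260000, the 10 kb bin of JARID2 just inside its start, and rose from 14.5 ± 4.5 (SD, n = 3) normalized contacts at 0 h to 24.7 ± 1.3 (SD, n = 3) at 72 h. Its log2 fold change was 0.75 (SE 0.23, edgeR adjusted p = 0.00689), and it did not pass without 0 h replicate 1 (0.53, adjusted p = 0.104) or with DESeq2 (adjusted p = 0.053). With 3 libraries of 0 h above the filter, it needed a later one to be tested. The loop of 760 kb to chr6:14860001-14870000, loop13346, stood at 11.2 ± 2.66 at 0 h and 12.6 ± 1.38 at 72 h (SD, n = 3 each) with a change on the log2 scale of 0.23 (SE 0.30, edgeR adjusted p = 0.59). One bin away, at chr6:15610001-15620000, loop13342 reached 880 kb to the stretch between CD83 and JARID2 at chr6:14730001-14740000. Its normalized contacts were 9.42, 4.75, 6.27 and 5.69 at 0 h, 12.7, 17.8, 14.2 and 12.1 at 6 h, and 15.9, 17.1, 12.5 and 16.1 at 72 h. The highest 0 h library lay below the lowest library of each later time, and the 72 h log2 fold change was 1.17 (SE 0.32). No 0 h library of loop13342 was above the filter, so it was tested only because its later values are high, and its change is given as a description.

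The shortest loop of that DTNBP1 anchor went the other way. Loop13351 spanned 110 kb from chr6:15510001-15520000, in the last part of JARID2 and 2.807 kb from the 3′ end of DTNBP1, and fell from 85.3 ± 5.97 (SD, n = 3) normalized contacts at 0 h to 69.2 ± 7.97 (SD, n = 3) at 72 h, with 63.2 ± 7.51 (SD, n = 4) at 6 h. At 72 h this is -0.36 as log2 fold change (SE 0.13, edgeR adjusted p = 0.0207). It did not pass once replicate 1 (adjusted p = 0.0661) or 4 (0.0656) of 0 h or replicate 3 of 72 h (0.0924) was left out, with DESeq2 (0.0791) or with the length offset (0.06). Loop13352 left the same anchor for chr6:16190001-16200000, 680 kb downstream, and fell from 34.4 ± 7.25 to 22.8 ± 2.79 (SD, n = 3 each), a change on the log2 scale of -0.53 (SE 0.20, edgeR adjusted p = 0.0264). This call was lost when replicate 2 of 0 h (adjusted p = 0.147), or replicate 2 (0.0669) or 3 (0.0788) of 72 h, was omitted. It was also lost with DESeq2 (0.108) and with libraries scaled to total counts in place of TMM (edgeR adjusted p = 0.0505).

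**Figure D2:**
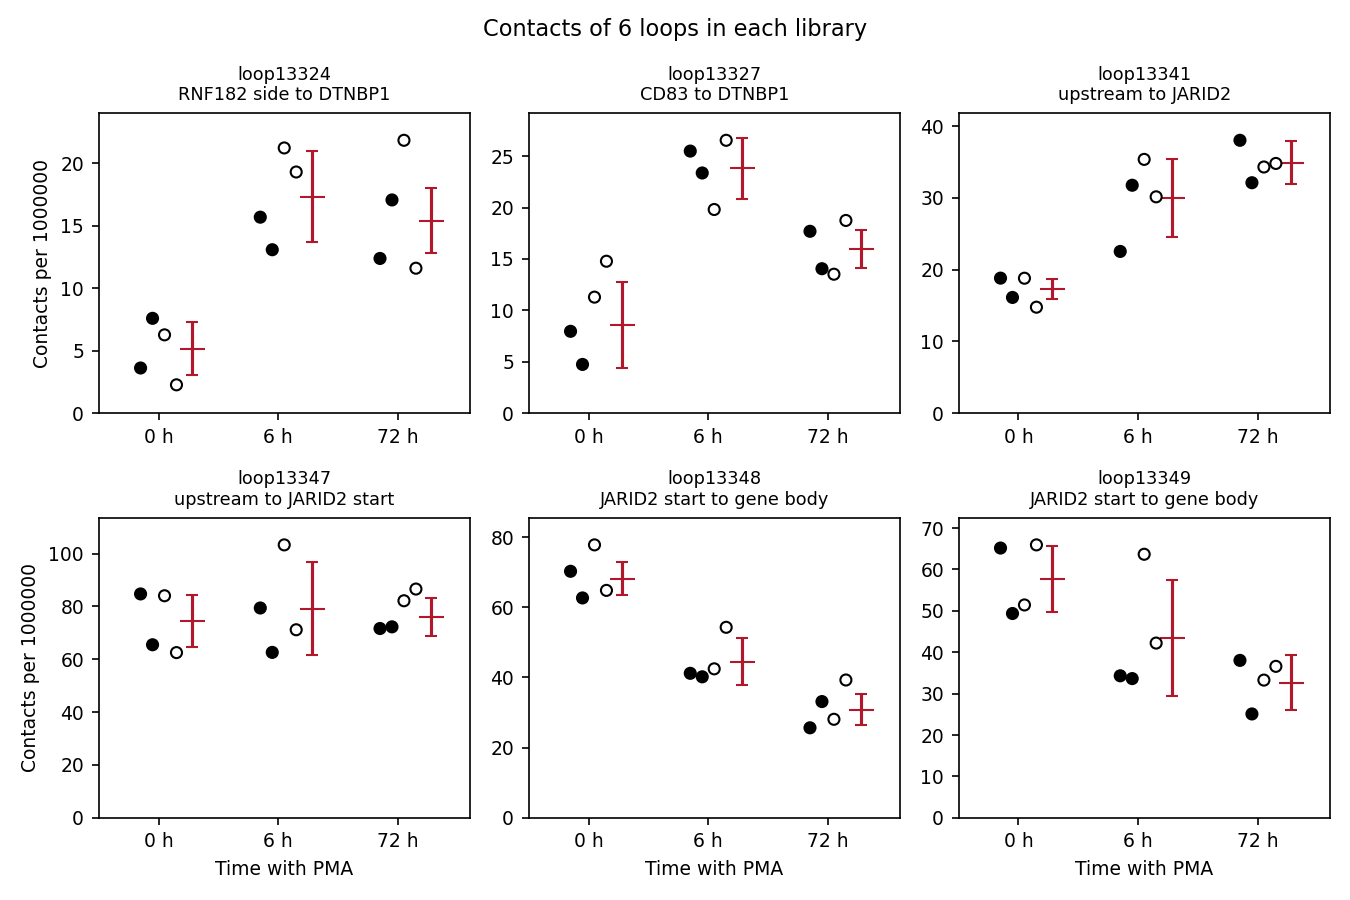
Each panel plots the normalized contacts (per 1000000 contacts in tested loops, from 0) of 1 loop in the 4 libraries of each time, filled for replicates 1 and 2 and open for replicates 3 and 4, with the mean and SD in red (n = 3, 4 and 3). In loop13324 and loop13341 every library at 6 h and 72 h lies above all 0 h libraries. In loop13348 every one lies below them, and in loop13347 the times overlap. Loop13324 was chosen for its rise at 6 h and had no 0 h library above the filter on low counts, so its panel is a description.

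At the other end of loop13324, the anchor at chr6:13900001-13910000 upstream of RNF182 held 5 loops, and its shorter ones fell. The loop with the most contacts of all 42, loop13321, spanned 160 kb to chr6:14060001-14070000. Its normalized contacts were 230, 226, 247 and 226 at 0 h, 206, 184, 171 and 224 at 6 h, and 173, 170, 162 and 166 at 72 h. All 72 h libraries lay below all 0 h libraries, and the log2 fold change was -0.46 (SE 0.09, edgeR adjusted p = 2.39e-05). Loop13322, 240 kb to chr6:14140001-14150000 just past the end of CD83, went from 107 ± 6.2 to 70.1 ± 1.9 (SD, n = 3 each), a change on the log2 scale of -0.60 (SE 0.12, edgeR adjusted p = 2.93e-05). Loop13319, 110 kb back to chr6:13790001-13800000 inside MCUR1, went from 90.7 ± 10.5 to 65.4 ± 6.04 (SD, n = 3 each), a change on the log2 scale of -0.52 (SE 0.13, edgeR adjusted p = 0.000531).

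Of these 3, loop13319 and loop13322 also passed between 6 h and 72 h. Loop13319 stood at 87.8 ± 8.21 (SD, n = 4) at 6 h and its log2 fold change from 6 h to 72 h was -0.43 (SE 0.13, edgeR adjusted p = 0.0105), which missed the threshold with DESeq2 (0.0507). Loop13322 stood at 88.9 ± 7.85 (SD, n = 4) at 6 h and changed by -0.34 from there to 72 h (SE 0.13, edgeR adjusted p = 0.0451). That call was lost when replicate 1 (adjusted p = 0.105), 3 (0.0564) or 4 (0.124) of 6 h or replicate 1 (0.0865), 2 (0.0664) or 3 (0.135) of 72 h was omitted, when replicates 3 and 4 were summed at 72 h (0.0545), with the length offset (0.0522) and with DESeq2 (0.127). The fifth loop of the anchor, loop13323, ran 820 kb to chr6:14720001-14730000 in the stretch between CD83 and JARID2 and rose in the same interval. Its normalized contacts were 5.07, 9.49, 11.3 and 13.6 at 0 h, 8.82, 5.61, 4.25 and 8.44 at 6 h, and 15.9, 14.1, 15.6 and 15.2 at 72 h. All 72 h libraries lay above all others. On the log2 scale it changed by 1.13 from 6 h to 72 h (SE 0.34), which missed the threshold with DESeq2 (adjusted p = 0.0629). From 0 h to 72 h it changed by 0.71 (SE 0.30, edgeR adjusted p = 0.0587). No 6 h library of loop13323 was above the filter, and 2 of 0 h were. It was therefore tested only because its 72 h values are high, and both changes are given as a description.

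In the next bin, chr6:13910001-13920000, 4.446 kb from the RNF182 start, 2 loops ended. Loop13325 reached 90 kb across RNF182 to chr6:14000001-14010000 and fell from 85 ± 6.96 to 63.4 ± 11.7 (SD, n = 3 each), a change on the log2 scale of -0.47 (SE 0.13, edgeR adjusted p = 0.00217). Its change from 6 h to 72 h was -0.36 (SE 0.13, edgeR adjusted p = 0.0432), a call lost when replicate 1 (adjusted p = 0.122) or 3 (0.117) of 6 h or replicate 2 (0.11), 3 (0.118) or 4 (0.0998) of 72 h was omitted, when replicates 3 and 4 of 72 h were summed (0.0587), and with DESeq2 (0.131). Loop13326, 1570 kb to the body of JARID2 at chr6:15480001-15490000, stood at 13.8 ± 2.29 at 0 h and 11.2 ± 2.09 at 72 h (SD, n = 3 each). Its log2 fold change was -0.27 (SE 0.29, edgeR adjusted p = 0.484). With the length offset it was -0.75 and passed as lower (edgeR adjusted p = 0.0339). So 2 loops of like length that left neighbouring bins beside RNF182, loop13324 and loop13326, had values of 1.64 and -0.27 at 72 h without the offset. Their difference was not tested.

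CD83 lay under anchors of 3 loops. Its far end fell inside chr6:14130001-14140000, from which loop13329 reached 580 kb to chr6:14710001-14720000. The normalized contacts were 13, 8.54, 12.5 and 18.2 at 0 h, 22.6, 19.6, 18.4 and 12.1 at 6 h, and 19.5, 25.1, 30.2 and 27.7 at 72 h. The 72 h libraries all lay above those of 0 h, and those of 6 h overlapped both, and the 72 h log2 fold change was 0.97 (SE 0.24, edgeR adjusted p = 0.000714). With 3 libraries of 0 h above the filter, loop13329 needed a later one to be tested. The anchor in the CD83 body held loop13327, described above, and loop13328, the longest loop of the region at 2060 kb, which ended at chr6:16180001-16190000. Loop13328 went from 5.41 ± 1.43 (SD, n = 3) at 0 h to 15.3 ± 2.53 (SD, n = 4) at 6 h and 9.69 ± 0.376 (SD, n = 3) at 72 h, and its log2 fold change at 72 h was 0.75 (SE 0.38, edgeR adjusted p = 0.111). From 6 h to 72 h it was -0.69 (SE 0.31, edgeR adjusted p = 0.0941). No 0 h library of loop13328 was above the filter, beside 4 of 6 h and 2 of 72 h. It was tested only because its 6 h values are high, and both changes are given as a description.

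Loops within the stretch between CD83 and JARID2, which holds no protein-coding gene, rose at 72 h where they passed. Loop13331, 500 kb from chr6:14200001-14210000 to chr6:14700001-14710000, rose from 33.3 ± 4.99 to 55.7 ± 1.65 normalized contacts (SD, n = 3 each), a change on the log2 scale of 0.71 (SE 0.16, edgeR adjusted p = 0.00019). Loop13344, 280 kb from chr6:14780001-14790000 to chr6:15060001-15070000, stood at 30.4, 29.4, 33.9 and 36.4 at 0 h, 46.1, 58.9, 50.9 and 42.2 at 6 h, and 58.4, 54.2, 58.2 and 56.2 at 72 h. Both later times lay wholly above 0 h, and its 72 h log2 fold change was 0.82 (SE 0.16, edgeR adjusted p = 1.52e-05). Loop13334, 250 kb from chr6:14210001-14220000 to chr6:14460001-14470000, rose by 0.47 on the log2 scale (SE 0.15, edgeR adjusted p = 0.00993), a call lost when replicate 2 of 0 h (adjusted p = 0.0734) or replicate 3 of 72 h (0.0544) was omitted and with DESeq2 (0.0595). Loop13340, 360 kb from chr6:14720001-14730000 to chr6:15080001-15090000, rose between 6 h and 72 h from 28.3 ± 9.08 (SD, n = 4) to 38.8 ± 3.64 (SD, n = 3), a change on the log2 scale of 0.52 (SE 0.19, edgeR adjusted p = 0.0353). It did not pass once replicate 1 (adjusted p = 0.0679), 2 (0.135) or 4 (0.151) of 6 h or replicate 3 (0.108) or 4 (0.0649) of 72 h was omitted. Nor did it pass with DESeq2 (0.158) or, in edgeR, without the filter on low counts (0.0653).

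One loop from that stretch fell. Loop13333 spanned 1280 kb from chr6:14200001-14210000 to the body of JARID2 at chr6:15480001-15490000, the bin that also held loop13326. Its normalized contacts were 44.9, 41.8, 38.9 and 40.9 at 0 h, 27.5, 30.8, 38.2 and 42.2 at 6 h, and 15.9, 21.1, 31.2 and 33.9 at 72 h. All 72 h libraries lay below all 0 h libraries, with replicates 3 and 4 higher than 1 and 2. At 72 h the log2 fold change was -0.72 (SE 0.18, edgeR adjusted p = 0.00095), with -1.26 within replicates 1 and 2 and -0.29 within replicates 3 and 4, and -1.14 with the length offset.

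The anchor at chr6:15240001-15250000, with both JARID2 starts shown above, held 5 loops that divided by direction. The 2 that ran downstream into the gene fell by 72 h, while none of the 3 that ran upstream passed. Loop13348 reached 150 kb into the body at chr6:15390001-15400000, and its normalized contacts were 70.3, 62.7, 77.8 and 64.8 at 0 h, 41.2, 40.2, 42.5 and 54.3 at 6 h, and 25.7, 33.1, 28.1 and 39.3 at 72 h. The 3 times did not overlap. The 72 h log2 fold change was -1.12 (SE 0.15, edgeR adjusted p = 1.5e-09), and that from 6 h to 72 h was -0.48 (SE 0.17, edgeR adjusted p = 0.0362). The latter call was lost when replicate 4 of 6 h (adjusted p = 0.155) or replicate 1 (0.143), 2 (0.0512) or 3 (0.0837) of 72 h was omitted, and with DESeq2 (0.117).

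Loop13349, 200 kb from the same anchor to chr6:15440001-15450000, stood at 65.2, 49.4, 51.4 and 65.9 at 0 h, 34.3, 33.6, 63.7 and 42.2 at 6 h, and 38, 25.1, 33.3 and 36.6 at 72 h. The 72 h libraries all lay below those of 0 h, and at 6 h replicate 3 lay within the 0 h range. The log2 fold change at 72 h was -0.80 (SE 0.16, edgeR adjusted p = 2.63e-05). Upstream of the start, loop13347 (150 kb to chr6:15090001-15100000) stood at 74.5 ± 9.67, 79.1 ± 17.5 and 76.1 ± 7.17 at 0, 6 and 72 h (SD, n = 3, 4 and 3), and its 72 h log2 fold change was 0.06 (SE 0.13, edgeR adjusted p = 0.731). The values at 72 h were 0.11 (SE 0.16, edgeR adjusted p = 0.643) for loop13345 (380 kb to chr6:14860001-14870000) and -0.02 (SE 0.22, edgeR adjusted p = 0.954) for loop13332 (1040 kb to chr6:14200001-14210000). The difference between the downstream and the upstream loops of this anchor was not tested.

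The neighbouring bin, chr6:15250001-15260000, also inside JARID2, held 2 loops and both rose. Beside loop13350 to DTNBP1 these were loop13341, 520 kb upstream to chr6:14730001-14740000, the same bin from which loop13342 reached DTNBP1. Loop13341 stood at 18.8, 16.1, 18.8 and 14.8 normalized contacts at 0 h, 22.6, 31.8, 35.4 and 30.2 at 6 h, and 38, 32.1, 34.3 and 34.8 at 72 h. Neither later time overlapped 0 h, and the 72 h log2 fold change was 1.01 (SE 0.21, edgeR adjusted p = 3.49e-05). Thus anchors in adjacent 10 kb bins at the JARID2 start had loops with 72 h values from -1.12 to 0.11 in one and of 0.75 and 1.01 in the other.

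**Figure D3:**
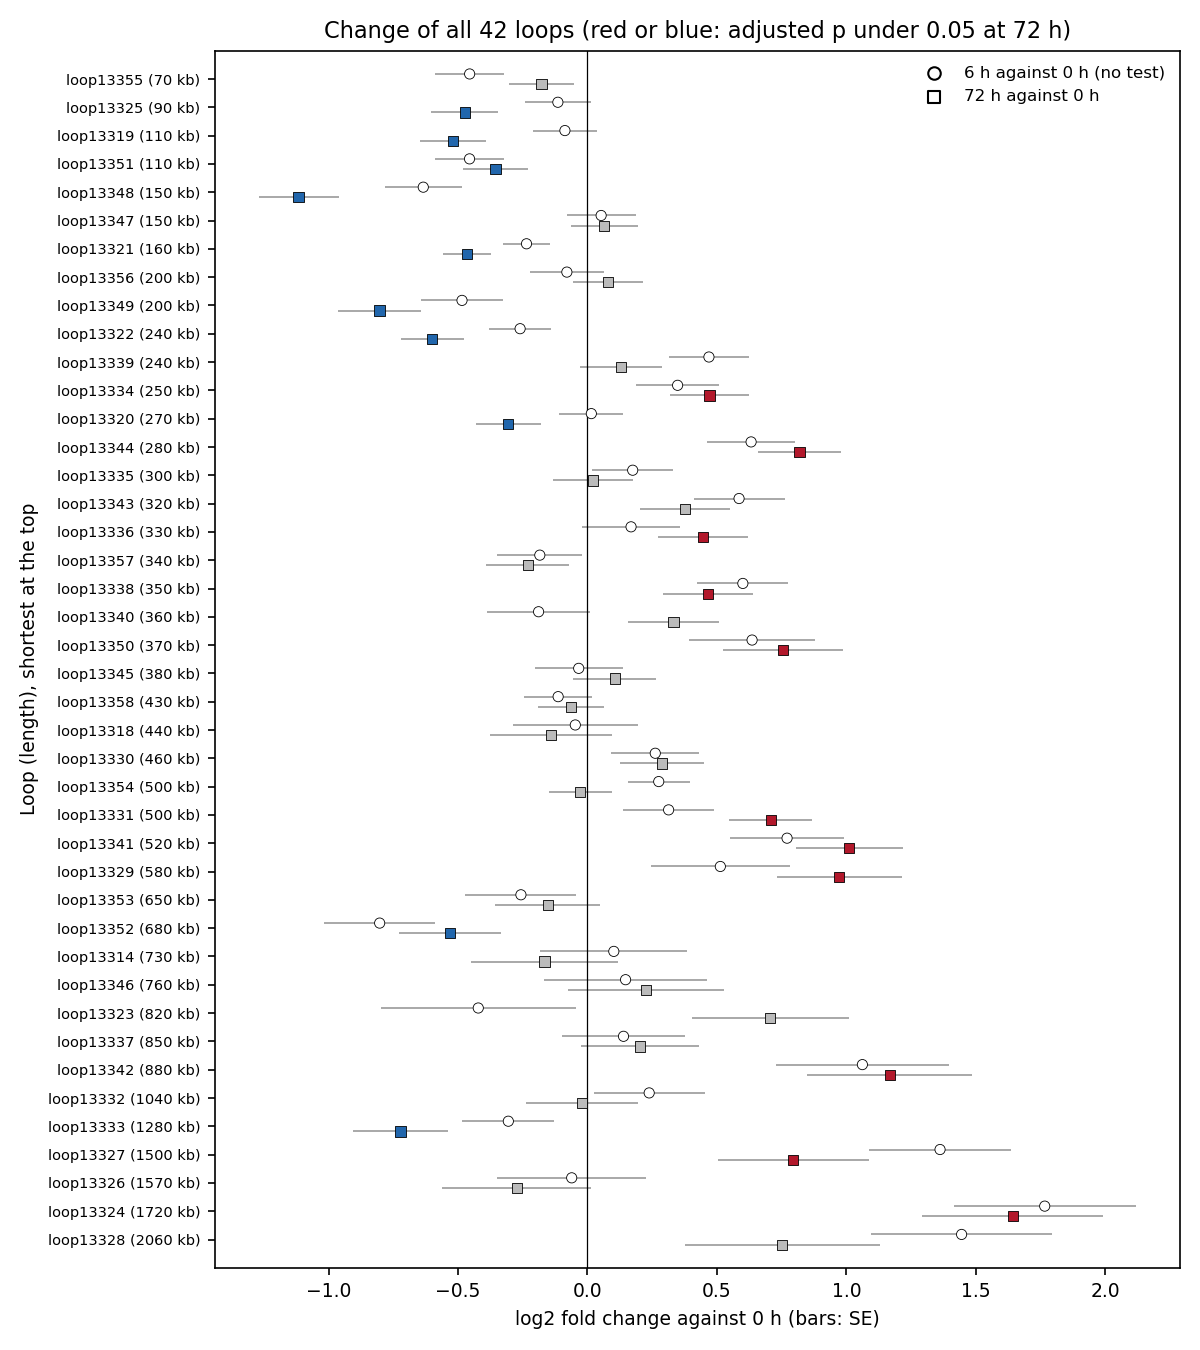
The log2 fold change against 0 h, with its SE, of all 42 loops ordered by length, as open circles at 6 h (a description with no test) and squares at 72 h, red where higher and blue where lower at an adjusted p under 0.05 and grey otherwise. At 72 h the blue squares gather among the loops up to 270 kb, with loop13352 and loop13333 as the longer ones, and the red squares begin at 250 kb.

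Of the 5 loops that lay wholly beyond DTNBP1, none passed at 72 h in edgeR's test. Loop13354, 500 kb from chr6:15680001-15690000 to chr6:16180001-16190000 and among the 3 with the most contacts, stood at 89.8 ± 1.48 at 0 h, 110 ± 17.9 at 6 h and 85.9 ± 5.47 at 72 h (SD, n = 3, 4 and 3), with a change on the log2 scale of -0.03 (SE 0.12, edgeR adjusted p = 0.882). It shared its far anchor with loop13328, whose near anchor is CD83. Over the 21 loops that did not pass at 72 h, the log2 fold changes lay between -0.27 and 0.75. The 3 remaining loops that passed fell outside the naming rule and were chosen for mention after their values were seen. Loop13320, from MCUR1 to chr6:14060001-14070000, fell by 0.31 on the log2 scale (edgeR adjusted p = 0.0465). Its call was lost when replicate 1 of 0 h or replicate 2, 3 or 4 of 72 h was omitted (adjusted p from 0.0561 to 0.174). It was also lost with replicates 3 and 4 of each time added together (0.0523) and with libraries scaled to total counts (0.0992). Loop13336 and loop13338, in the stretch between CD83 and JARID2, rose by 0.45 and 0.46 (edgeR adjusted p = 0.0354 and 0.0284). Loop13336 lost its call when replicate 1, 2 or 4 of 0 h or 3 or 4 of 72 h was omitted (adjusted p from 0.0665 to 0.12). The same held when replicates 3 and 4 of 72 h were summed (0.0514), with the length offset (0.0525) and without the filter on low counts (0.0979). Loop13338 lost its call when replicate 2 or 3 of either time was omitted (adjusted p from 0.0592 to 0.119) and without that filter (0.0796). None of the 3 passed with DESeq2.

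Loop length moved with these changes. Of the 9 loops up to 200 kb, 6 fell and none rose at 72 h by the edgeR test, with a median log2 fold change of -0.46, where over all 8201 tested loops of that length the median was -0.13, 29.5% fell and 14.7% rose. Of the 13 loops over 200 to 400 kb, 5 rose and 2 fell, with a median of 0.33 beside -0.01 over all loops of that length, of which 14.5% rose and 15.7% fell. In the class over 400 to 800 kb, 3 rose and 1 fell of 11 (median -0.03; over all 0.12, with 16.7% higher and 7.26% lower), and over 800 to 1600 kb, 2 rose and 1 fell of 7 (median 0.20; over all 0.38, with 28.9% higher and 2.14% lower). The class over 1600 kb held loop13324 and loop13328 alone. With the loess offset for length, 18 of the 21 calls at 72 h remained, and 19 loops passed in all, loop13326 among them.

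The values of the longest loops between 6 h and 72 h were set beside those of long loops elsewhere in the table, with no test of the difference. All 6 loops of at least 1 Mb had lower fitted values at 72 h than at 6 h, and none of the 5 differences other than that of loop13324 passed (edgeR adjusted p from 0.0763 to 0.653). Among the 1292 other tested loops of that length, 988 were higher at 72 h than at 6 h, and their median log2 fold change was 0.38. This comparison shares the 6 h libraries with the one that chose loop13324, and each of the 6 loops has an anchor in common with another of them. Loop13328 was tested only because its 6 h values are high, so a lower value at 72 h is favoured by how it entered, and nothing is read from these values.

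**Figure D4:**
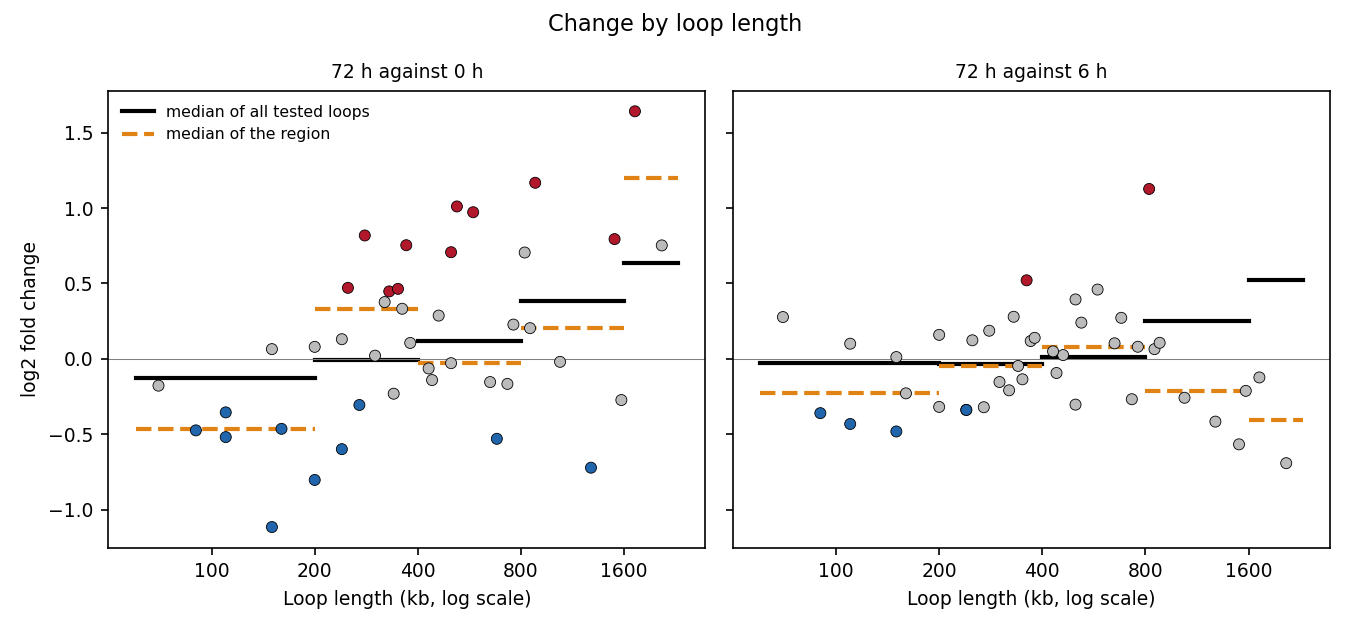
Points are the log2 fold changes of the 42 loops against loop length in kb on a log axis, at 72 h against 0 h (left) and 72 h against 6 h (right), red or blue where the adjusted p was under 0.05; black lines are the medians of all tested loops in 5 length classes and dashed lines those of the region. For the 9 loops up to 200 kb the region's median at 72 h against 0 h is -0.46 beside -0.13 for all loops, and on the right all 6 points of at least 1 Mb lie below 0.

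The sum over the region stayed near the same level while its parts shifted. The 42 loops together held 1823 ± 43.9 of every 1000000 contacts in loops at 0 h, 1876 ± 38.6 at 6 h and 1763 ± 52.5 at 72 h (SD, n = 3, 4 and 3). Loops up to 200 kb held 43.6% ± 0.585 of these at 0 h, 36.9% ± 1.82 at 6 h and 35.6% ± 1.28 at 72 h, where the same share of all loops was 57.3% ± 0.909, 54.7% ± 1.08 and 54.0% ± 0.84. Loops of at least 1 Mb held 5.05% ± 0.263, 6.75% ± 0.641 and 5.26% ± 0.867 of the region's contacts, and without loop13324 they held 4.79% ± 0.38, 5.91% ± 0.654 and 4.45% ± 0.787. Over the whole table that share was 3.35% ± 0.184, 3.88% ± 0.249 and 4.85% ± 0.178. The 0 h libraries all lay above the later ones in the share of short loops, and no test was made of these sums.

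Windows of the same length on either side were set beside the region. In the window before it, 17 of 31 tested loops passed at 72 h against 0 h (10 higher, 7 lower), 14 at 72 h against 6 h and 1 at 6 h against 0 h. In the window after it, 11 of 32 passed at 72 h (8 higher, 3 lower), 5 at 72 h against 6 h and 3 at 6 h. Over the other 1617 tested loops of chromosome 6, 34.4% passed at 72 h against 0 h. The share passing at 72 h in the region, 50%, thus lay below that of the window before it, 54.8%, and above that of the window after it, 34.4%.

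Of the 42 loops, 35 carried a log2 fold change in the authors' deposited table, and loop13324 was among the 7 without one. The authors' deposited table classed 4 loops as gained (loop13327, loop13331, loop13341 and loop13344), 2 as lost (loop13348 and loop13349) and 36, loop13324 included, as static. An adjusted p under 0.05 stood beside 9 loops in the authors' deposited table, and all 9 were among the 21 that passed here at 72 h. That adjusted p is a single value per loop beside fold changes for 6 h and 72 h, so it need not refer to 72 h alone. Both results come from the same counts, so the overlap is a description. For loop13348 the authors' deposited table gave -0.44 (6 h) and -1.02 (72 h) on the log2 scale, and for loop13327 it gave 1.13 and 0.39.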

How the data were processed

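In situ Hi-C was measured in K562 cells at 0, 6 and 72 h of 25 nM PMA. The authors deposited 1 table with raw contact counts of 33914 loops in 30 columns, 1 per technical replicate, together with anchor positions, their log2 fold changes, adjusted p-values and classes. Per the submitters' processing notes, Juicer 1.5.6, DESeq2 and the build hg38 were used; mapping and loop-calling settings are not given in the sources used here. The deposited starts count from 0 and were raised by 1.

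Technical replicates were summed to 12 libraries. The counts were fitted in R 4.3.3 with edgeR 4.0.16 (TMM, filterByExpr with a minimum count of 10 and a minimum total of 15, quasi-likelihood test, 1 model over all 24132 tested loops, Benjamini-Hochberg, threshold 0.05). Fold changes use a prior count of 0.125. A library counted as a separate sample in mean ± SD unless a chi-square test over loops found no difference from its partner (p above 0.05). Alternatives were DESeq2 1.42.0, total-count scaling, no filter, a loess offset for length (span 0.3), a replicate block, replicates 1 and 2 or 3 and 4 alone, summed replicates, an adjusted p under 0.01 and leaving out each library.

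Same-numbered libraries of different times correlated at 0.0146 to 0.124 in their deviations from the group means, and differently numbered ones at -0.0738 to 0.0441. The main fit did not use the numbers. With a replicate block, calls over all tested loops went from 8105 to 8560 at 72 h against 0 h. They went from 4945 to 5472 at 72 h against 6 h and from 1546 to 1938 at 6 h against 0 h.

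Loops were named by a rule: the 1720 kb loop, loops at an end of the 4 named genes or nearest to one, up to 20 loops past the threshold by smallest p, loops at or beside the anchors of the 1720 kb loop, the 3 with the most contacts and the 3 longest. The members, lists and rules were chosen with earlier results of these data known.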

Additional observations from a re-analysis of the deposited data

Results flagged for a closer look

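Between 6 h and 72 h, 6 loops changed in edgeR's test, so that their 6 h and 72 h values against 0 h differ by a test of the difference itself. These are 14.3% of the region's loops, where 20.5% of all tested loops passed. The log2 fold changes from 6 h to 72 h were -0.43 for loop13319, -0.34 for loop13322 and -0.36 for loop13325, all beside RNF182, and -0.48 for loop13348 in JARID2. They were 1.13 for loop13323 and 0.52 for loop13340, which share the anchor at chr6:14720001-14730000. Only loop13319 and loop13323 kept the call in every fit that left out 1 library, and none of the 6 passed with DESeq2. Loop13323 had no 6 h library above the filter on low counts, so its call rests on a loop tested only through its high 72 h values.

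At 6 h, the highest of the 4 libraries for loop13348, at 54.3 normalized contacts in replicate 4, stood far from the other 3, which lay between 40.2 and 42.5. Such a gap was looked for in 27 groups of 4, where chance gives about 1.35.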

How the results depend on the processing

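At 72 h against 0 h, where 21 loops were called, DESeq2 called 13, and 13 also without its independent filtering; replicates 1 and 2 alone gave 13 and replicates 3 and 4 alone 11. At 72 h against 6 h, where 6 were called, the count was 10 with the replicate block, 1 at an adjusted p under 0.01, and 2 to 7 when 1 library was left out, with 3 without 72 h replicate 2 and 2 without 72 h replicate 3. It was 0 with DESeq2, 0 without its independent filtering, and 0 within either pair of replicates, where edgeR gave 8 (replicates 1 and 2) and 11 (replicates 3 and 4) at an unadjusted p under 0.05, DESeq2 10 and the full edgeR fit 16. At 6 h against 0 h, where 14 were called, the count was 6 within replicates 1 and 2, 1 within replicates 3 and 4, 6 with the length offset, 2 with DESeq2, 4 without its independent filtering, 5 at an adjusted p under 0.01, and 5 to 14 when 1 library was left out (5 without 6 h replicate 2). The replicate block gave 21 and 14 at 72 h and 6 h against 0 h. DESeq2 without independent filtering and summing replicates 3 and 4 at every time were chosen after seeing the data. Of the 21 calls at 72 h against 0 h, 13 remained whichever library was left out, 13 with DESeq2, 18 with the length offset and 19 after replicates 3 and 4 were summed at every time, and all 21 kept their sign within both pairs of replicates. At 72 h against 6 h, 4 of the 6 calls remained with replicates 3 and 4 summed at 72 h, the loops lost being loop13322 and loop13325. No value changed sign after being called. Depth limits the longest loops, which held as few as 2 contacts in a library.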
